A study of Mus musculus with 6 samples.

Results

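The genes described here encode ligands, a receptor, regulators and targets of bone morphogenetic protein (BMP) and activin signalling. They were 10 genes chosen by symbol, namely Bmp1, Bmp2, Bmp4, Bmpr1a, Inhba, Grem1, Smad6, Id1, Id2 and Id3, of the 18182 genes in the deposited files, and all 10 were found. The study asked how bone marrow-derived mesenchymal stem cells (BMSCs) change the cancer cells beside them. LLC cells, the Lewis lung carcinoma line of C57BL/6 mice, carried a red fluorescent protein (LLC-RFP) and were injected under the skin of wild-type C57BL/6 mice, either alone (LLC alone, 3 libraries) or together with BMSCs bought as cultured murine cells (LLC with BMSCs, 3 libraries). Cells positive for the red protein were sorted from the primary tumours by flow cytometry, and their RNA was sequenced. The study's methods describe young female mice for its tumour growth experiments. The labels do not give the age and do not say whether the libraries of a group came from separate animals. The p-values therefore measure the spread between these libraries, which may be technical.

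BMPs and activins are secreted dimers that bring together type I and type II serine/threonine kinase receptors, and the type I receptor then phosphorylates SMAD proteins that enter the nucleus with SMAD4. The genes Id1, Id2 and Id3 are among the best-known targets of the BMP-activated SMAD1, SMAD5 and SMAD9, and encode small helix-loop-helix proteins that cannot bind DNA and hold E proteins away from it. Gremlin traps BMPs outside the cell, whereas SMAD6 blocks the BMP receptor signal inside it. In lung, BMP signalling is known for its part in airway branching and in the growth of lung cancers.

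Id1, Id2 and Id3 fell together in LLC cells from tumours with BMSCs, by 10.4-fold for Id3, 8.48-fold for Id1 and 6.45-fold for Id2 in mean level, and Smad6 fell to 0.605 of its mean in LLC alone. Bmp1 and Inhba rose. Bmpr1a and Grem1 did not pass the test, and Bmp2 and Bmp4 had at most 2 counted fragments in any library. Of the 8 genes that passed the filter on low counts, 2 were higher and 4 were lower at an adjusted p under 0.05, against a background of 31.5% of the 13353 tested genes higher and 31.3% lower. Of the 2 higher, Inhba passed that filter only through LLC with BMSCs, the group in which it was high, so its call adds nothing to the count. With so many genes called, the counts of higher and lower genes alone set these genes little apart, and the sizes of the changes are given below.

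The promoters of the genes that moved are shown here because the ID genes and Smad6 are known direct targets of SMAD proteins. RefSeq promoter sequences (build GRCm38.p6, 250 bases before to 50 after the RefSeq start) were found for 7 of the 10 genes, without Bmp1, Bmp2 and Id1. They were searched on both strands for GGCGCC (a GC-rich SMAD-binding element), GTCTAGAC (the palindromic SMAD element), CAGAC (the 5-base SMAD box), CACGTG (the E-box form bound by MYC and related factors) and TATAAA (the TATA box). None of these motifs contains another. In the lines that follow, the bases in capitals are the motif, read 5′ to 3′ on the strand of the gene.
Id2 GGCGCC, chr12:25096308-25096333, minus strand: aggccccctgGGCGCCcagcgcacac
Id3 CAGAC, chr4:136143645-136143669, plus strand: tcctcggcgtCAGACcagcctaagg
Id3 CAGAC on the other strand, chr4:136143744-136143768, plus strand shown: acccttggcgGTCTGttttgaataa
Smad6 GTCTAGAC, chr9:64022046-64022073, minus strand: ccgccaaagtGTCTAGACtggcatatga
Inhba TATAAA, chr13:16011750-16011775, plus strand: aacttctaaaTATAAAtctctggcac

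In Id2 the motif lay at bases -231 to -226 from the RefSeq start, and in Id3 the matches lay at -167 to -163 and -68 to -64. The palindrome of Smad6 ran across the start, from -4 to 4, and the TATAAA match of Inhba lay at -91 to -86. GGCGCC was present in the 250 bases upstream of 9.59% of 32851 RefSeq promoters, CAGAC in 42.2%, CACGTG in 6.02% and TATAAA in 12.4%, whereas GTCTAGAC was present in only 0.213% of the whole 300-base windows. Grem1 held GGCGCC and 2 CAGAC matches, Bmpr1a held GGCGCC, and Bmp4 held CACGTG. A match of letters is not evidence of binding. In the GENCODE annotation, exons of further transcript models of these genes cover 161 of the 250 upstream bases of Id2 and all 250 of Id3, so only the stretches around their motifs are shown. For Smad6 and Inhba, whose upstream bases lie outside their GENCODE exons, the 250 bases follow whole, with the motif bases again in capitals.
Smad6, chr9:64022060-64022309, minus strand: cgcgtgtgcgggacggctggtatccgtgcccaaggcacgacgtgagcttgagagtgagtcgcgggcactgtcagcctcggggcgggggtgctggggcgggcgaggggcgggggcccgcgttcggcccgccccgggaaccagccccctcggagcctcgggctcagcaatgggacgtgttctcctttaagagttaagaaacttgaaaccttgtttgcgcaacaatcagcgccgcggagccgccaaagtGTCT
Inhba, chr13:16011601-16011850, plus strand: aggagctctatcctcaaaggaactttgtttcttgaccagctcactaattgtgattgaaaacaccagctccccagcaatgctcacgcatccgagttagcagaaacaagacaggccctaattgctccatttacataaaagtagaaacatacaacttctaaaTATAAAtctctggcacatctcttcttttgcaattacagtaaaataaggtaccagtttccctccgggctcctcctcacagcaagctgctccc

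The genes lie on 6 chromosomes in the GENCODE annotation of GRCm38. Bmp1 (chr14:70474558-70520234), Bmpr1a (chr14:34410734-34503341), Bmp4 (chr14:46383520-46390669), Grem1 (chr2:113746164-113758646), Smad6 (chr9:63953076-64022059) and Id2 (chr12:25093799-25097140) are on the minus strand. Bmp2 (chr2:133552159-133562885), Id1 (chr2:152736251-152737410), Id3 (chr4:136143497-136145755) and Inhba (chr13:16011851-16031621) are on the plus strand. Exons of Bmp4 and Bmpr1a overlap those of opposite-strand genes, Gm15217 and Gm17110, and without stranded counting the reads of such pairs cannot be told apart. The deposited files themselves give NCBI gene identifiers and no coordinates.

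The libraries held 33476347 to 46189113 estimated fragments, and no pair within a group agreed within sampling noise (chi-square per gene of 2.98 to 59.3). Replicate 3 of LLC alone stood apart in how its counts depended on transcript length, since the quintile of shortest genes lay at a median of 0.31 and the quintile of longest genes at -0.37 from the mean of the libraries on the log2 scale, while the LLC with BMSCs libraries leaned the other way, with -0.19 to -0.09 for the shortest genes. Removing this trend shifted the median log2 fold change of all tested genes from 0.01 to -0.06. Calls of named genes that depended on it are given both ways. As markers of the carcinoma, Krt8 was at 90.3 to 113 FPKM (fragments scaled to transcript length and library total) in all 6 libraries, whereas Epcam, Cdh1 and Nkx2-1, which mark epithelium and its lung form, were near 0. Krt8 was slightly higher in LLC with BMSCs (log2 fold change 0.19, adjusted p = 0.0374). Krt18 was low but also higher there, at 0.03, 0.09 and 0.13 FPKM in LLC alone and 0.69, 0.63 and 0.64 FPKM in LLC with BMSCs. All 8 tested markers of BMSCs and fibroblasts were higher in LLC with BMSCs, beside 31.5% of all tested genes. Of these 8, Col1a1 and Lum passed the filter on low counts only through LLC with BMSCs, the group in which they were high. They had 2, 4 and 4 counts (Col1a1) and 4, 2 and 3 counts (Lum) in LLC alone, so their calls add nothing to the count. The summed level of the 11 listed markers rose from 271 to 326 CPM (counts scaled to library total) to 670 to 702 CPM. Col3a1 made up most of this sum in both groups (mean of 228 against 546 CPM). Thy1 and Cxcl12 were at 0 in every LLC alone library, but had at most 2 and 12 counts in any LLC with BMSCs library. Macrophage markers went from 6.80 to 8.33 CPM to 16.0 to 16.5 CPM, with Adgre1 at 0 in LLC alone and at 60, 79 and 63 counts in LLC with BMSCs. C1qa and C1qc were also at 0 in LLC alone, but had at most 3 counts in any LLC with BMSCs library. Of the 6 macrophage markers tested, 5 were higher, beside 31.5% of all tested genes. Of these 5, Adgre1 and Itgam (0, 0 and 5 counts in LLC alone) passed the filter on low counts only through LLC with BMSCs. Their calls add nothing to the count. Cd68, which made up most of the sum in LLC alone, was lower (6.67 against 3.59 CPM, log2 fold change -0.89 ± 0.12, adjusted p = 5.01e-04). Neutrophil markers went from 0.436 to 0.720 CPM to 17.7 to 20.3 CPM. S100a8 and S100a9 made up most of this sum in LLC with BMSCs (means of 6.42 and 10.3 CPM). Mpo and Elane were at 0 in LLC alone and at means of 0.517 and 0.195 CPM in LLC with BMSCs. Ly6g was near 0 in both groups (4, 3 and 1 counts against 3, 1 and 1). Endothelial markers were at 14.1 to 17.8 CPM and 13.3 to 14.4 CPM, mostly Egfl7 (means of 12.3 and 11.1 CPM). Of those tested, Esam was lower (log2 fold change -0.85, adjusted p = 0.00436) and 3 were not called. The part of these other cell types in the results below was not tested. In these bulk libraries, fewer cells of a type and less RNA per cell cannot be told apart.

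**Figure D1:**
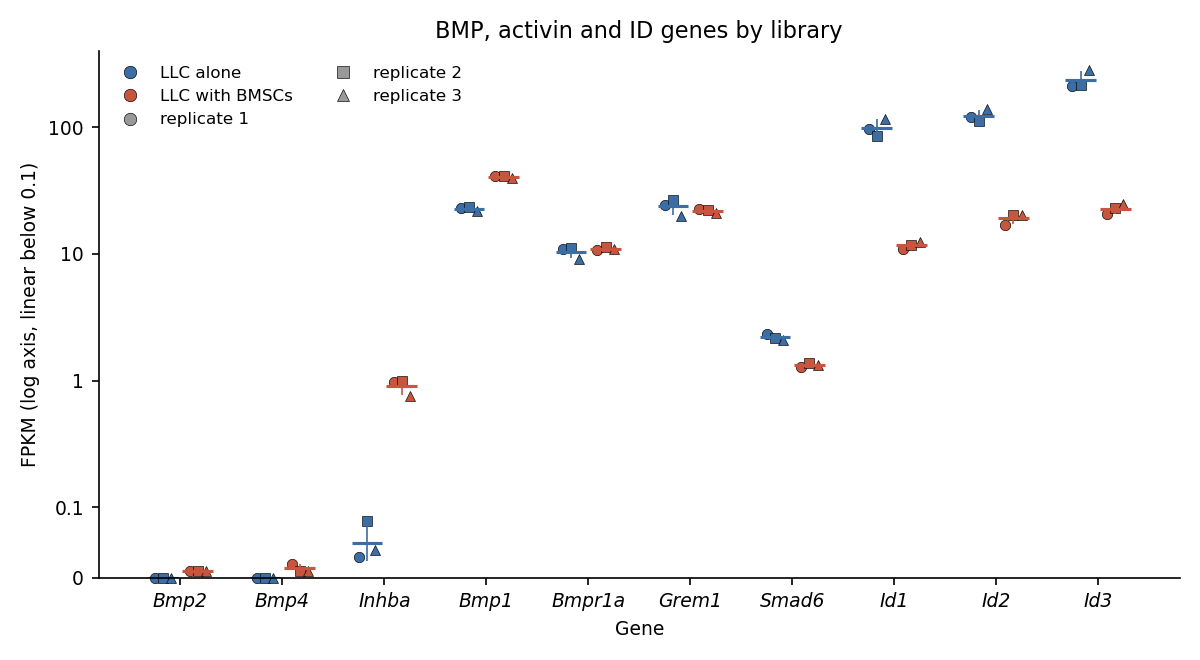
FPKM of the 10 genes in each library, on an axis that is logarithmic above 0.1 and linear below it. Each symbol is a library, horizontal bars are group means and vertical bars are ± SD (n = 3). The ID genes of the LLC alone libraries sit at 84.34 FPKM or above and those of the LLC with BMSCs libraries at 24.57 FPKM or below, while Bmpr1a and Grem1 overlap between the groups.

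Bmp2 and Bmp4, which encode classical BMP ligands, were close to absent from the sorted cells. Bmp2 had 0 estimated fragments in each LLC alone library and 1 in each LLC with BMSCs library. Bmp4 had 0 in each LLC alone library and 2, 1 and 1 in the LLC with BMSCs libraries. These counts are all at or under the floor of 3 counts per library. Neither gene passed the filter on low counts, so neither was tested and no fold change is given.

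Inhba encodes the beta A subunit of activin A and of inhibin A. Its FPKM values were 0.03, 0.08 and 0.04 in LLC alone and 0.97, 1.0 and 0.75 in LLC with BMSCs, from 2, 4 and 3 estimated fragments and 63, 64 and 48. The groups did not overlap, but the level stayed low throughout. Scaled to library size, the summed 175 fragments against 9 gave a ratio of 18.5 (95% interval 9.51 to 41.1, covering counting error only), and the fitted log2 fold change was 4.13 ± 0.32 (SE, adjusted p = 2.50e-05). Inhba passed the filter on low counts only through the LLC with BMSCs group, and it was not fitted where at least 10 counts were asked of every library. The 8 tested markers of BMSCs and fibroblasts were also higher in LLC with BMSCs, with log2 fold changes from 0.41 (Pdgfrb) to 7.14 (Col1a1). Col1a1 and Lum among them passed that filter only through that group too. The summed macrophage and neutrophil markers were higher there as well. A part of any of these cell types in the Inhba values was not tested.

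Bmp1, despite its name, encodes a tolloid metalloprotease that trims procollagens and frees BMPs from the inhibitor chordin. It was at 23.18, 23.48 and 21.69 FPKM in LLC alone and at 41.05, 40.89 and 39.90 FPKM in LLC with BMSCs, or 22.8 ± 0.959 and 40.6 ± 0.623 (SD, n = 3). Every LLC with BMSCs library lay above every LLC alone library. Its log2 fold change was 0.79 ± 0.055 (SE, adjusted p = 1.62e-05), and it was 0.62 with the length trend removed. Of its transcripts, the RefSeq form NM_009755 carried the rise, from 18.1 ± 1.56 to 34.6 ± 1.13 FPKM, while a form assembled by the authors' pipeline was at 4.85, 4.02 and 5.32 FPKM against 7.58, 5.16 and 5.43 FPKM, with overlapping groups. Pcolce, whose product enhances the procollagen protease activity of BMP1, was the most abundant gene of the pathway list in these cells and was lower in LLC with BMSCs, at 386 ± 18.7 against 325 ± 20.9 FPKM (log2 fold change -0.27 ± 0.072, adjusted p = 0.0123).

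Bmpr1a encodes the type I BMP receptor also called ALK3. Its FPKM values were 11.0, 11.04 and 9.07 in LLC alone and 10.71, 11.33 and 10.88 in LLC with BMSCs, so that the groups overlapped. The log2 fold change was 0.06 ± 0.082 (SE, adjusted p = 0.575), and an exact permutation test on FPKM (two-sided) gave p = 0.7. The sign rested on replicate 3 of LLC alone, since it was -0.024 without that library and -0.19 (adjusted p = 0.00485) with the length trend removed. The RefSeq transcript NM_009758 made up 89.0% to 95.0% of the gene's FPKM in every library.

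Grem1, the gene of the secreted BMP trap gremlin 1, was at 24.47, 26.59 and 20.06 FPKM in LLC alone and at 22.50, 22.21 and 20.99 FPKM in LLC with BMSCs. Again the groups overlapped, and the LLC alone libraries held both the highest and the lowest value. The log2 fold change was -0.13 ± 0.099 (SE, adjusted p = 0.273), and the exact permutation test (two-sided) gave p = 0.5. Without replicate 3 of LLC alone the value was -0.23 (adjusted p = 0.00473), and with the length trend removed it was -0.07.

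Smad6 encodes an inhibitory SMAD that is itself switched on by BMP and acts as a brake on the type I receptors. Its FPKM values were 2.32, 2.16 and 2.10 in LLC alone and 1.27, 1.37 and 1.34 in LLC with BMSCs. The groups did not overlap, and the means were 2.19 ± 0.114 and 1.33 ± 0.0513 (SD, n = 3). The log2 fold change was -0.74 ± 0.089 (SE, adjusted p = 2.43e-04), and -0.83 with the length trend removed. Both transcripts were lower in every LLC with BMSCs library than in any LLC alone library, with NM_008542 at 1.57 ± 0.135 against 1.16 ± 0.110 FPKM and the assembled form at 0.620 ± 0.0656 against 0.173 ± 0.0896 FPKM. The assembled form thus made up 25.5% to 32.4% of the gene's FPKM in LLC alone and 5.22% to 18.0% in LLC with BMSCs.

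**Figure D2:**
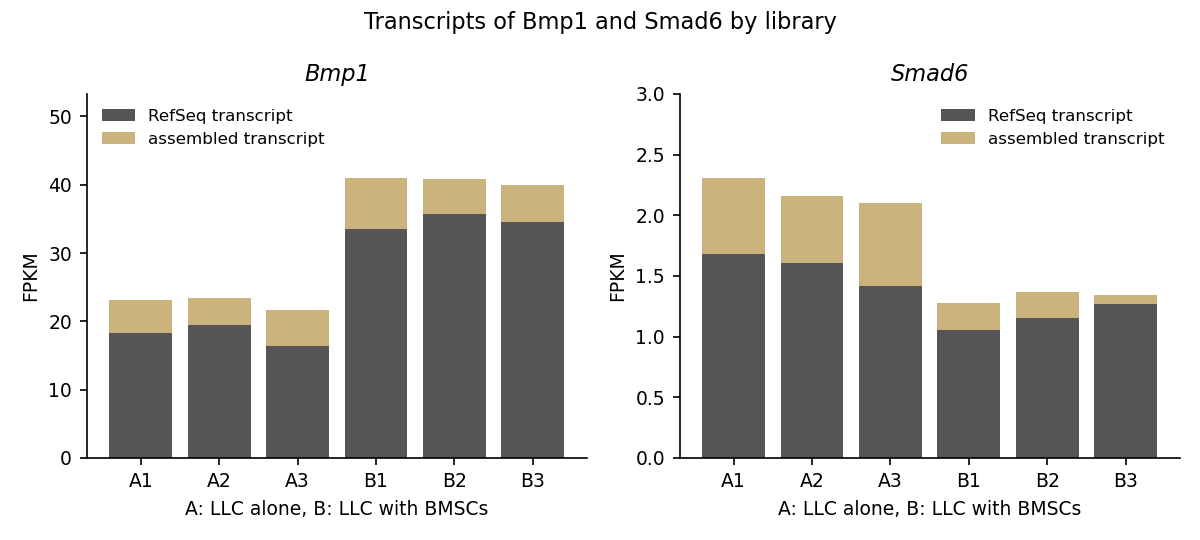
FPKM of the transcripts of Bmp1 (left) and Smad6 (right) in each library, stacked, for the RefSeq transcript and the transcript assembled by the authors' pipeline. A1 to A3 are LLC alone and B1 to B3 are LLC with BMSCs. The RefSeq transcript of Bmp1 lies at 33.47 FPKM or above in LLC with BMSCs, and the assembled transcript of Smad6 at 0.23 FPKM or below.

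Id3 was the most abundant of the 10 genes in LLC alone. It was at 211.99, 214.07 and 280.65 FPKM in LLC alone and at 20.56, 22.87 and 24.57 FPKM in LLC with BMSCs. The lowest LLC alone library was thus far above the highest LLC with BMSCs library, and the means were 236 ± 39.1 and 22.7 ± 2.01 (SD, n = 3), a 10.4-fold difference. The log2 fold change was -3.40 ± 0.13 (SE, adjusted p = 1.02e-06). By FPKM, Id3 ranked between 302 and 354 among the genes above 0 in the LLC alone libraries and between 3459 and 4002 in the LLC with BMSCs libraries.

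Id1, the classical BMP-responsive member of the family, was at 95.99, 84.34 and 116.01 FPKM in LLC alone and at 10.88, 11.77 and 12.30 FPKM in LLC with BMSCs. The groups were again well apart, with means of 98.8 ± 16.0 and 11.7 ± 0.718 (SD, n = 3), an 8.48-fold difference. This gave a log2 fold change of -3.11 ± 0.13 (SE, adjusted p = 1.21e-06).

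Id2, best known for its part in lymphoid and neural development, was at 119.26, 112.12 and 137.84 FPKM in LLC alone and at 16.80, 20.20 and 20.28 FPKM in LLC with BMSCs. These groups did not overlap either, and the means of 123 ± 13.3 and 19.1 ± 1.99 (SD, n = 3) differed 6.45-fold. The fitted log2 fold change was -2.71 ± 0.11 (SE, adjusted p = 1.11e-06).

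Few genes fell as far. Of all tested genes, 107 (0.801%) had a log2 fold change at or below that of Id3, 128 (0.959%) at or below that of Id1 and 164 (1.23%) at or below that of Id2, each count with the gene itself. The drop was not even across the family. The FPKM ratio of Id3 to Id2 was 1.78, 1.91 and 2.04 in LLC alone and 1.22, 1.13 and 1.21 in LLC with BMSCs, and that of Id2 to Id1 was 1.24, 1.33 and 1.19 against 1.54, 1.72 and 1.65, so that Id2 fell less than its relatives in these libraries. Replicate 3 of LLC alone held the highest value of all 3 genes, whose single RefSeq transcripts are short (934 to 1289 bases), and this was the library in which short genes read high. With the length trend removed, the log2 fold changes of Id1, Id2 and Id3 were -2.91, -2.58 and -3.21, and without that library they were -2.97, -2.61 and -3.25.

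**Figure D3:**
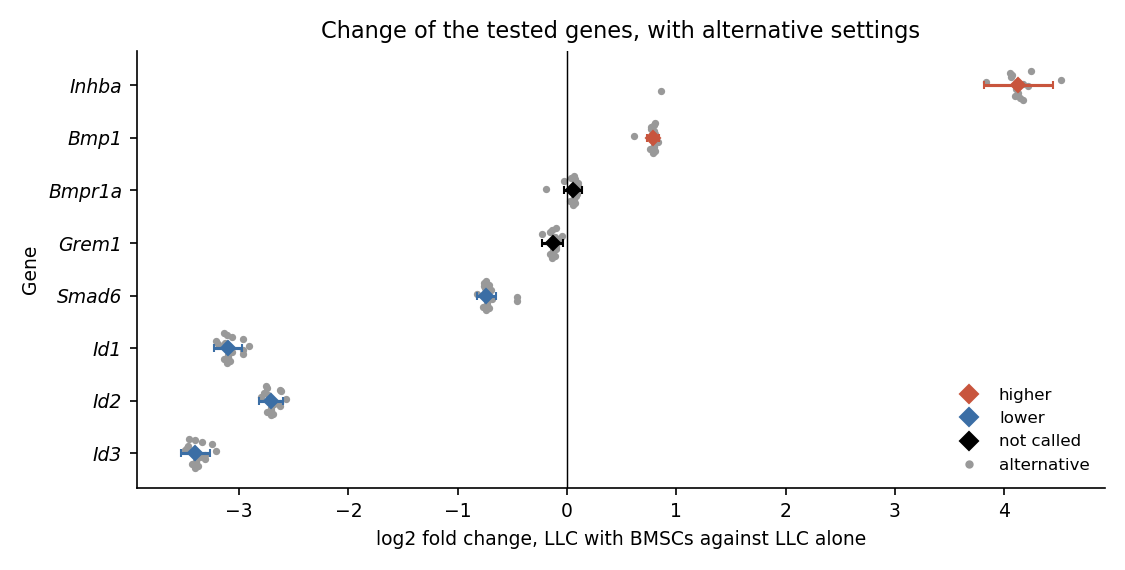
Log2 fold change of LLC with BMSCs against LLC alone for the 8 tested genes. Diamonds are the reported values with their SE, and grey points are the values under up to 17 alternative settings, spread vertically for display. The ID genes stay at -2.58 or below under every setting, the values of Bmpr1a lie on both sides of 0, and the point of Inhba at 0.86 is the fit on log2(FPKM + 1) without a filter.

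ID proteins act by binding E proteins, the basic helix-loop-helix factors encoded by Tcf3 (E2A), Tcf4 and Tcf12 (HEB). The summed FPKM of Id1, Id2 and Id3 was 427, 411 and 535 in LLC alone and 48.2, 54.8 and 57.2 in LLC with BMSCs. The summed FPKM of the E-protein genes was 121, 116 and 108 in LLC alone and 119, 113 and 114 in LLC with BMSCs, with overlapping groups. The ID sum was thus above the E-protein sum in LLC alone, with ratios of 3.53, 3.55 and 4.97, and below it in LLC with BMSCs, with ratios of 0.406, 0.486 and 0.503. ID transcripts are short (934 to 1289 bases) beside those of the E-protein genes (mean lengths of 3311 to 6929 bases). The ratios were not corrected for the length trend, and 4.97 is that of replicate 3 of LLC alone, in which short genes read high. Of the E-protein genes, Tcf3 rose slightly (log2 fold change 0.22 ± 0.061, adjusted p = 0.0127), a call that was lost with the length trend removed (0.10, adjusted p = 0.0949). Tcf12 (-0.07, adjusted p = 0.473) and Tcf4 (-0.14, adjusted p = 0.0893) did not pass the test. Both were called lower with the trend removed, at -0.26 (adjusted p = 8.01e-04) for Tcf12 and -0.44 (adjusted p = 3.40e-04) for Tcf4, and without replicate 3 of LLC alone, at -0.15 (adjusted p = 0.0246) and -0.18 (adjusted p = 0.00992). The fourth ID gene, Id4, was not listed in the files used here.

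**Figure D4:**
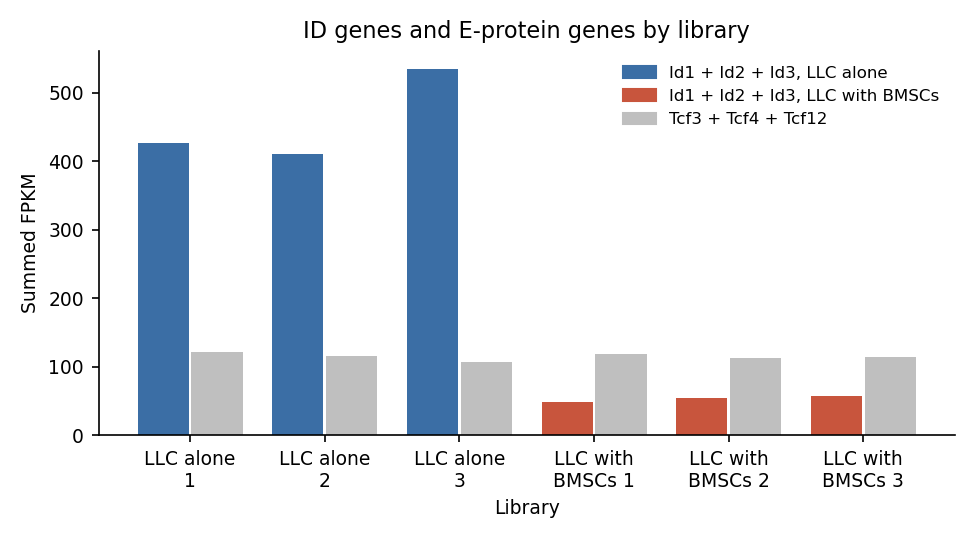
Summed FPKM of Id1, Id2 and Id3 (blue for LLC alone, red for LLC with BMSCs) and of the E-protein genes Tcf3, Tcf4 and Tcf12 (grey) in each library. The ID bars fall from between 411 and 535 to between 48.2 and 57.2, while the grey bars stay between 108 and 121.

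By FPKM, the genes in LLC alone ran from Id3 through Id2, Id1, Grem1, Bmp1, Bmpr1a, Smad6 and Inhba to Bmp2 and Bmp4, and the values of Id2 and Id1, and of Grem1 and Bmp1, overlapped between libraries. In LLC with BMSCs, Bmp1 came first, followed by Id3, Grem1, Id2, Id1, Bmpr1a, Smad6 and Inhba, and the values of Id3 and Grem1, and of Id1 and Bmpr1a, overlapped. The FPKM values of the 2 groups did not overlap for 6 of the 8 tested genes, against 70.6% of all tested genes. Of these 6, Inhba passed the filter on low counts only through LLC with BMSCs and adds nothing to that count. For each of these 6 genes an exact permutation test on FPKM gave p = 0.1, the smallest value that 3 against 3 libraries can give.

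The rest of the pathway was described with a list of 88 other genes of BMP and activin signalling, of which the files held 78, and 50 passed the filter. In this set, 16 were higher and 15 lower in LLC with BMSCs, so 62% were called, beside 62.9% of all tested genes, and the median log2 fold change was 0.03, beside 0.01 for all tested genes. With the length trend removed, 13 were higher and 24 lower, beside 3999 higher and 5354 lower of the 13353 tested genes. The counts by role below stand beside these same backgrounds, which were 4210 higher and 4183 lower without that removal. At a log2 fold change of at least 1 in size, 1 gene of the list was higher, against a background of 8.65%, and 7 were lower, against 7.17%, of which 2 (Bmp6 and Inhbe) passed the filter on low counts only through LLC alone.

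Most other ligand genes were barely detected, with 18 of the 22 in the files under 1 FPKM in every library. Of the 9 tested, 4 were lower and 1, Gdf11, was higher (2.63 ± 0.204 against 4.42 ± 0.0404 FPKM), and with the length trend removed 4 were lower and 2 higher. Of the lower ones, Bmp6 and Inhbe passed the filter on low counts only through LLC alone, the group in which they were high, so their calls add nothing to the count. Gdf15, a stress-induced relative of the BMPs that signals through another receptor system, was the most abundant ligand gene. It was at 35.80, 34.53 and 47.50 FPKM in LLC alone and at 4.82, 4.78 and 4.56 FPKM in LLC with BMSCs (log2 fold change -3.08 ± 0.14, adjusted p = 1.98e-06). Bmp6, a ligand known for its control of iron through hepcidin, had 22, 22 and 43 estimated fragments in LLC alone and 8, 4 and 4 in LLC with BMSCs, a 5.72-fold difference after scaling (95% interval 3.33 to 10.5, counting error only). Inhbe, which encodes the beta E subunit of activin E, had 31, 15 and 28 fragments against 2, 0 and 1, a ratio of 26.0 with a wide counting interval of 8.55 to 129. Gdf1, which shares a bicistronic transcript with Cers1 so that its reads may not be its own, was at 0.913 ± 0.165 against 0.363 ± 0.0416 FPKM (log2 fold change -1.27 ± 0.15, adjusted p = 2.61e-04).

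Among the receptors and co-receptors, 5 of the 9 tested were higher and 2 were lower (4 and 2 with the length trend removed), and all of these changes were below a log2 fold change of 1 in size. Bmpr2, the type II BMP receptor, rose from 7.85 ± 1.40 to 14.4 ± 0.337 FPKM (log2 fold change 0.85 ± 0.12, adjusted p = 5.78e-04), which was 0.48 with the length trend removed. Acvr2b, a type II activin receptor, rose by a log2 fold change of 0.61 ± 0.11 (adjusted p = 0.00194) and by 0.23 with the trend removed, whereas its relative Acvr2a did not pass the test (0.17 ± 0.071, adjusted p = 0.0711). Acvr1, the type I receptor ALK2, fell from 16.5 ± 0.385 to 13.2 ± 0.357 FPKM (-0.36 ± 0.055, adjusted p = 8.17e-04). Eng, which encodes the co-receptor endoglin and was the most abundant of this group, rose from 28.7 ± 1.81 to 34.8 ± 3.18 FPKM (0.26 ± 0.084, adjusted p = 0.0275), and this call was lost with the length trend removed (0.12, adjusted p = 0.104).

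The secreted antagonists and modulators were divided, with 4 of the 8 tested higher and 3 lower (4 and 4 with the length trend removed). Fstl1, a follistatin-like glycoprotein and the most abundant of them, was at 44.38, 44.94 and 41.66 FPKM in LLC alone and at 81.40, 84.89 and 84.93 FPKM in LLC with BMSCs (log2 fold change 0.92 ± 0.056, adjusted p = 8.07e-06). Follistatin itself (Fst), which neutralises activins, was low, with 12, 12 and 19 estimated fragments against 24, 33 and 39 (1.06 ± 0.28, adjusted p = 0.0110). Bmper, the BMP-binding protein also known as crossveinless-2, fell from 2.27, 2.31 and 2.51 FPKM to 0.50, 0.72 and 0.69 FPKM (-1.57 ± 0.12, adjusted p = 2.40e-05). Nog, the gene of the antagonist noggin, was not listed in the files used here.

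Among the 16 signal transducers and regulators, all of which were tested, 5 were higher and 3 were lower. This was 50% called, beside 62.9% of all tested genes. With the length trend removed the count was 3 higher and 9 lower, in a setting that also moved all tested genes towards lower (3999 higher and 5354 lower). The BMP-activated SMADs did not move as one. Smad9 was at 2.49, 2.30 and 1.89 FPKM in LLC alone and at 0.57, 0.46 and 0.45 FPKM in LLC with BMSCs (log2 fold change -2.20 ± 0.14, adjusted p = 1.03e-05). Smad5 rose from 11.7 ± 1.53 to 17.6 ± 0.0451 FPKM (0.58 ± 0.094, adjusted p = 0.00112, and 0.29 with the length trend removed), and Smad1 did not pass the test at 9.39 ± 0.350 against 10.1 ± 0.264 FPKM (0.09 ± 0.057, adjusted p = 0.196). Smad4, the partner shared by all receptor-activated SMADs, rose from 16.4 ± 1.77 to 21.4 ± 0.197 FPKM (0.36 ± 0.081, adjusted p = 0.00555), which was 0.23 with the trend removed. Smad7, the inhibitory SMAD of both BMP and TGF-beta signalling, fell, as Smad6 did, from 9.24 ± 0.357 to 6.64 ± 0.191 FPKM (-0.50 ± 0.058, adjusted p = 2.05e-04). The most abundant gene of this group, Fkbp1a, whose product holds type I receptors inactive, was at 294 ± 26.7 against 275 ± 5.91 FPKM and did not pass the test (-0.11 ± 0.076, adjusted p = 0.217).

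Of the other target genes and ID partners, 6 were tested, of which 1 was higher and 2 were lower, against 0 higher and 4 lower with the length trend removed. Atoh8, a helix-loop-helix gene that BMP switches on through SMAD1 and SMAD5, was at 10.08, 9.49 and 11.05 FPKM in LLC alone and at 0.51, 0.31 and 0.48 FPKM in LLC with BMSCs (log2 fold change -4.58 ± 0.16, adjusted p = 6.18e-07). Msx1, a homeobox gene known as a BMP target, fell from 2.88 ± 0.137 to 2.11 ± 0.155 FPKM (-0.47 ± 0.10, adjusted p = 0.00436). Of the tolloid proteases and their enhancers, 2 of 4 were tested, Pcolce as described above and Pcolce2, which did not pass the test (-0.01, adjusted p = 0.923).

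**Figure D5:**
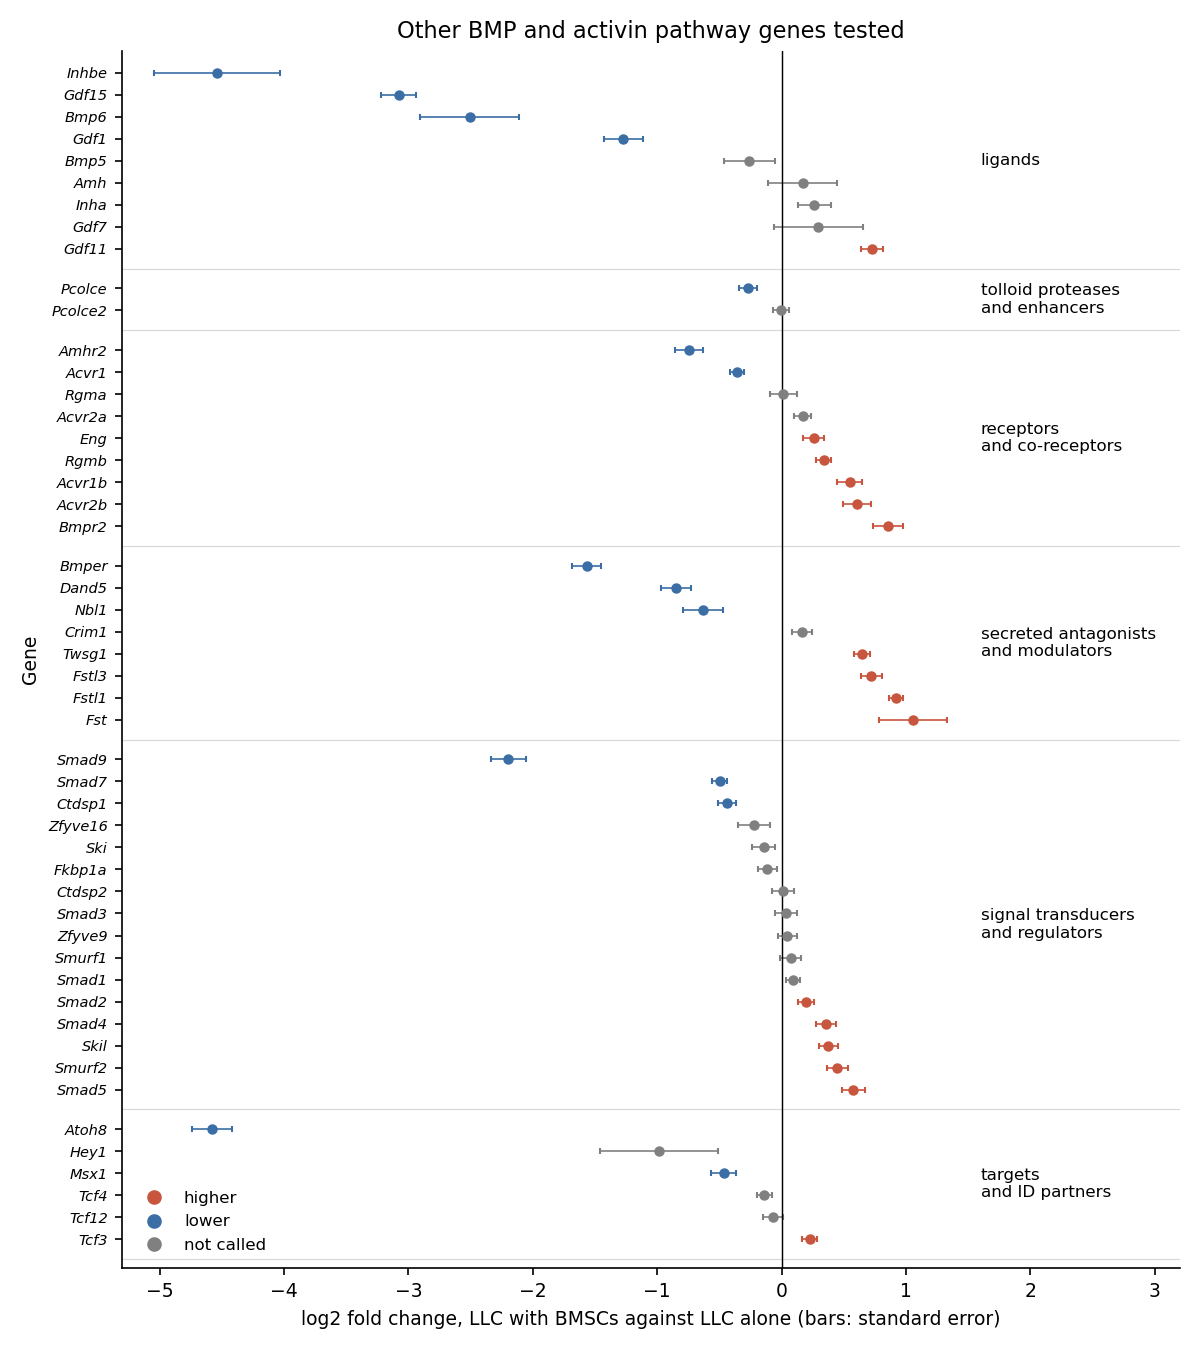
Log2 fold change of LLC with BMSCs against LLC alone, with SE, for the 50 tested genes of the pathway list, grouped by role and coloured by call. The far left holds Atoh8 at -4.58, Inhbe at -4.54 and Gdf15 at -3.08, and 1 gene, Fst, lies above 1.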

How the data were processed

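RNA of sorted LLC cells was sequenced in 6 libraries, which the sample titles place in the LLC alone group (3) and the LLC with BMSCs group (3). The authors deposited FPKM values and estimated counts for genes and transcripts (unnormalized, not always whole), with gene lengths averaged over transcripts. Per the labels, the submitters' processing notes name HISAT, StringTie, Cufflinks, GATK and the build mm8, with no roles or versions. The paper describes paired-end reads of 100 bp from the BGISEQ-500, whereas the labels name Illumina protocols. Estimated counts can divide reads among similar genes, but those of the 10 genes described were whole in all 6 libraries. FPKM scales to length and depth, so a length trend within a library moves it too.

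Counts were rounded and tested in R 4.3.3 with edgeR 4.0.16 (TMM normalization, default filter on low counts, quasi-likelihood test over the 6 libraries, two-sided), with Benjamini-Hochberg adjustment over the 13353 genes that passed and a threshold of 0.05. SE was obtained as the size of the log2 fold change over the root of F. The script was tested on simulated data. With 33476347 to 46189113 fragments per library, 3 counts was taken as the floor, for counting error only. Count intervals are exact conditional binomial intervals (95%). The genes, the pathway and marker lists and the tests were chosen with earlier results of these data known. Named pathway genes were those past the threshold with a log2 fold change of at least 1 in size, the most abundant of each group, and a fixed set of receptors, SMADs and antagonists, and others named with values (Gdf11, Msx1, Tcf3, Tcf4, Pcolce2 and the markers) were added after their values were seen. Positions are from GENCODE M21 and promoters from RefSeq, both on GRCm38, matched by NCBI gene identifier. The alternatives included DESeq2 1.42.0 and limma 3.58.1. The FPKM table of the whole series repeats the values of the single libraries and was not used.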

Additional observations from a re-analysis of the deposited data

How the results depend on the processing

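Of 201 values recomputed under 17 alternatives, 194 kept their direction and side of the threshold (counts within 1.5 times). Of the 10 genes, the number called higher was 1 in place of 2 with at least 10 counts in every library and with limma on log2(FPKM + 1) or log2(FPKM + 0.1) after the FPKM filter, since Inhba was then not fitted. The pathway genes called lower were 24 in place of 15 with the length trend of each library removed, for which the cause was not tested. Of all tested genes, 5354 in place of 4183 were called lower with this trend removed. Bmpr1a reversed to -0.19 with that trend removed, and its log2 fold change ran from -0.024 (without replicate 3 of LLC alone) to 0.10 when each library was left out. That of Grem1 ran from -0.23 (without that library) to -0.047. Over the alternatives, the log2 fold changes of Id1 ran from -3.21 to -2.91, of Id2 from -2.80 to -2.58 and of Id3 from -3.50 to -3.21. Those of Smad6 ran from -0.83 to -0.46 and of Bmp1 from 0.62 to 0.83, and none of the calls of these 5 genes was lost. That of Inhba ran from 0.86 to 4.52 over the 14 alternatives that fitted it. Inhba passed the filter on low counts only through LLC with BMSCs, so the keeping of its call adds nothing.

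Libraries with the same number did not deviate together (correlations of 0.0762, -0.106 and 0.0572), so the numbers were not taken as pairs. A fit with a replicate block gave Id1 -3.10, Id2 -2.71, Id3 -3.39, Smad6 -0.74, Bmp1 0.79, Inhba 4.11, Bmpr1a 0.06 and Grem1 -0.13, and changed no call among these genes. Depth limits Bmp2, Bmp4 and Inhba, which had at most 4 fragments in any LLC alone library.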
